A study of Oryzias latipes with 2 samples.

Results

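The very short gene entries of the medaka table are those with 1 transcript and a length of 150 bp or less. There were 280 of them among 20259 entries, or 1.38%. They were 1.89% of the 14813 entries with 1 transcript and a known length. The other 14533 of these, longer than 150 bp, are called the longer entries. An entry is 1 line of the tables, usually 1 Ensembl gene. Of the 280 very short entries, 1 had a gene identifier that also stood on another line, so its values are those of 1 line only. RNA was sequenced from whole embryos of Oryzias latipes, the medaka or Japanese rice fish, at stage 24, when somites are forming. The titles of the samples hold the name ICab, read here as that of a laboratory strain. The 2 samples are replicates of 1 group. For each, 60 embryos kept at 26 °C and dechorionated manually were pooled. Reads counted on all entries summed to 22661195 in replicate 1 and 23055861 in replicate 2. There was no treatment, mutant or other stage to compare, and nothing in the labels ties the pools to separate clutches, so their spread may be technical.

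In vertebrate annotations, genes this short are commonly those of small RNAs that code for no protein. MicroRNA precursors fold into hairpins, are cut to the mature microRNA and repress messenger RNAs, and they often lie in clusters. Small nucleolar RNAs guide the chemical modification of ribosomal RNA, and in vertebrates many of them lie inside introns of host genes. Small nuclear RNAs work in splicing, and short fragments of protein-coding genes can also appear as entries of their own. The tables give no gene names or gene types. Of the 280 identifiers, 0 matched the RefSeq gene list of assembly ASM223467v1, so no entry is assigned to any of these classes and "small RNA size" here describes length only. The match of longer entries to this list is not given here, so the 0 does not set the very short entries apart.

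Membership rests on the read counts and RPKM values themselves (RPKM is reads per kilobase of transcript per 1000000 reads). The deposited RPKM of an entry with 1 transcript divides its reads by a length and a library total, so the length can be recovered from any entry with a read. Replicates 1 and 2 gave the same length for each of the 211 very short entries with reads in both. A length needs a read, and 1551 entries with 1 transcript had none in either library. These are not among the 280, whatever their length, so a share of very short genes that were expressed cannot be given. At the limit stood 6 entries of 150 bp, with mean levels from 0.145 to 91.9 RPKM. The next lengths were 152 bp, at 8.50 and 70.8 RPKM, and 153 bp, at 20.9, 0.289 and 6.57 RPKM, so the limit did not fall at a gap in length or level.

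The lengths fell into 2 heaps. They ran from 51 to 150 bp with a median of 94 bp. The fullest 10 bp range was 80 to 89 bp with 58 entries, between 43 entries at 70 to 79 bp and 30 at 90 to 99 bp. The number dropped to 12 at 100 to 109 bp and stood at 46 again at 130 to 139 bp. The most frequent single length was 88 bp, with 15 entries. Lengths that are whole multiples of 3, as a complete coding sequence has, made up 34.6% of the very short entries (97 of 280) and 74.2% of the longer entries. Without any preference for codons, 1 length in 3 would be a multiple of 3. These shares do not tell whether an entry codes for protein.

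**Figure D1:**
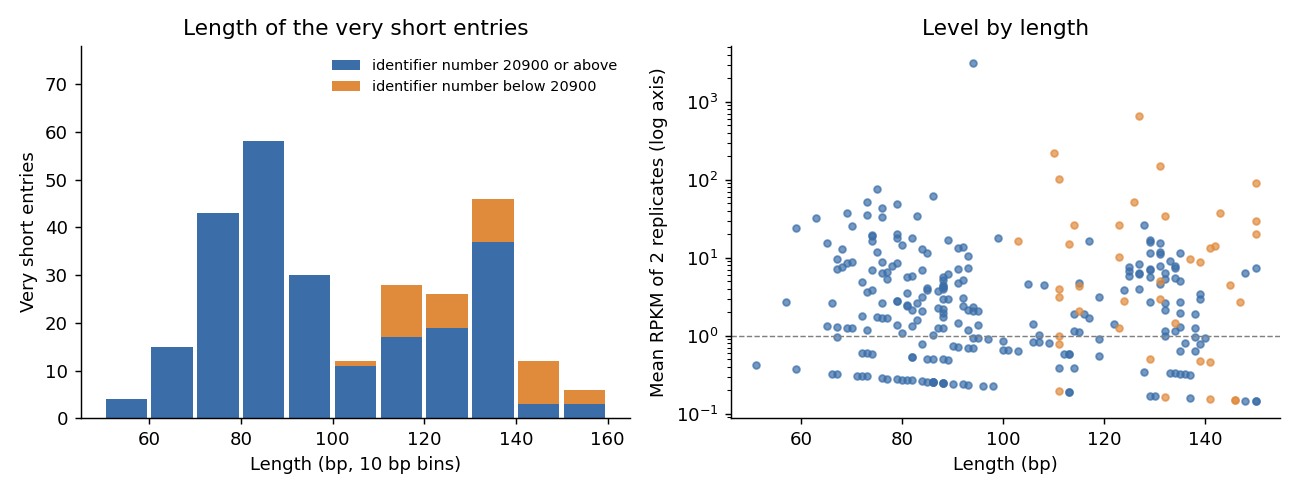
Left, the number of very short entries in each 10 bp range of length, split by the number in the gene identifier; the range from 150 bp holds entries of exactly 150 bp. Right, the mean RPKM of the 2 replicates on a log axis against length in bp, 1 point per entry, with a dashed line at 1 RPKM. A heap of 58 entries at 80 to 89 bp and another of 46 at 130 to 139 bp flank a minimum of 12 at 100 to 109 bp, and the highest point is the 94 bp entry at 3161 RPKM.

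Most very short entries carried a late identifier number. From number 20900 to the last, 21747, the tables held 731 entries, and each had 1 transcript. Among these, 240 were very short, 32 were longer and 459 had no read. The 240 made up 85.7% of all very short entries and 88.2% of the late-number entries of known length. Below 20900, very short entries numbered 40, or 0.275% of the entries with 1 transcript and a known length. The change was abrupt. From 20800 to 20899 there were 0 very short entries and a median known length of 1115.5 bp, while from 20900 to 20999 there were 18 and a median known length of 85 bp. Of all identifier numbers tried as a boundary, 20900 to 20904 left the fewest entries of known length on the wrong side, 72 in all (40 very short below and 32 longer above). The lowest of these was taken, after the tables were seen.

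Most late-number entries had no read at this depth. No read was counted for 62.8% of the 731, against 6.99% of the 15633 entries with 1 transcript and an earlier number. The median known length was 93 bp for the late-number entries and 1188 bp for the earlier ones. A shorter entry gets fewer reads at an equal level, and the part of length in this difference was not tested. At least 1 RPKM in both replicates was reached by 20.4% of the late-number entries and 69.6% of the earlier ones. The share with a read was uneven along the numbers. In bins of 100 numbers, it was lowest from 21100 to 21199, where 13.98% of 93 entries had a read, and highest from 21600 to 21699, at 57.1% of 98 entries. The very short entries of these bins had median levels of 0.593 and 2 RPKM. A count of 0 in a library allows up to 3 reads, which for a 94 bp entry is 1.41 RPKM in replicate 1 and 1.38 RPKM in replicate 2, so silence cannot be told apart from a low level. Such limits, and the intervals given for shares of reads, cover counting error alone, because amplification can copy a molecule many times.

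**Figure D2:**
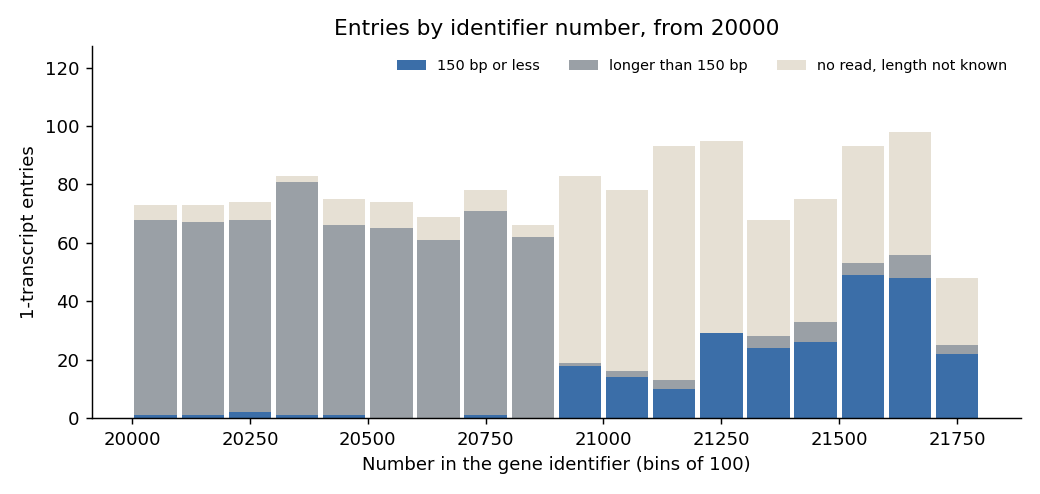
Entries with 1 transcript in bins of 100 identifier numbers from 20000, stacked as 150 bp or less, longer than 150 bp, and without a read in either replicate (length not known). From 20900 on, very short entries (18 in that bin, 49 in the bin from 21500) and entries without reads (64 and 40) take the place of the longer ones.

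The 240 late-number entries and the 40 others differed in length and level. The 240 had a median of 89.5 bp, 31.7% of their lengths were multiples of 3, and their median level was 2.15 RPKM (interquartile range 0.654 to 6.86). The 40 had lengths from 103 to 150 bp with a median of 131 bp, 52.5% multiples of 3, and a median of 4.76 RPKM (1.18 to 26.2). Levels of at least 10 RPKM were found in 39 of the 240 (16.2%) and in 17 of the 40 (42.5%). The late-number entries held 10228 reads in replicate 1 and 9217 in replicate 2, and the 40 held 4269 and 4827. A single late-number entry of 94 bp had 7399 and 6166 of these reads. The other late-number entries together had fewer reads than the 40 in both replicates. These are descriptions of annotated entries in a single pair of libraries, and no test over entries was made.

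Very short entries were low in both reads and level. Their median was 5 reads in each replicate, against 242 and 243 for the longer entries. In RPKM, which divides by length, the median of the mean of the replicates was 2.53 (interquartile range 0.703 to 7.50), against 9.06 (1.15 to 27.4) for the longer entries. It was 2.36 RPKM in replicate 1 and 2.47 RPKM in replicate 2 for the very short entries, and 9.13 and 8.999 RPKM for the longer ones. Together the very short entries took 0.0640% of all counted reads in replicate 1, with a 95% exact Clopper-Pearson interval of 0.0629% to 0.0650%. In replicate 2 they took 0.0609%, with an interval of 0.0599% to 0.0619%. The 377 longer entries of 152 to 300 bp, next in length, had a median of 6.60 RPKM and took 0.707% and 0.715% of the reads. The labels name a clean-up column after the Trizol extraction and a standard library preparation. No source used here says whether these kept RNAs this short, and their part in the low counts was not tested. Counts also do not tell reads of a short RNA from reads of a longer transcript that overlaps its gene.

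Detection at 1 RPKM means little evidence at these lengths. A single read was worth 0.470 RPKM in replicate 1 at 94 bp, and 3 reads passed 1 RPKM. At the longer entries' median length of 1188 bp, 27 reads were needed in replicate 1 and 28 in replicate 2. In both replicates 159 of the 280 very short entries (56.8%) reached 1 RPKM, against 10877 of the 14533 longer entries (74.8%). With at least 10 reads in each replicate, 91 of the 280 (32.5%) remained. Reads in only 1 replicate were found for 69 very short entries (24.6%), 31 in replicate 1 and 38 in replicate 2, and for 5.06% of the longer ones. A total of 1 read over both libraries was all that placed 40 entries among the 280.

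Levels did not move steadily with length among the very short entries. The median was 7.18 RPKM for the 15 entries of 60 to 69 bp, 4.86 RPKM at 70 to 79 bp, 2.19 RPKM at 80 to 89 bp and 1.76 RPKM at 90 to 99 bp. It reached its minimum of 0.847 RPKM at 100 to 109 bp, where 3 of 12 entries were detected in both replicates. It was 6.61 RPKM at 120 to 129 bp, where 21 of 26 were detected, and 2.41 RPKM at 130 to 139 bp.

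A single entry supplied more reads than the other 279 together in replicate 1, and fewer in replicate 2. ENSORLG00000021659, 94 bp long, had 7399 reads in replicate 1 and 6166 in replicate 2, or 3475.2 and 2846.3 RPKM (mean 3161 ± 445, SD, n = 2). It held 51.0% of the very short entries' reads in replicate 1 and 43.9% in replicate 2. By RPKM it ranked 45 among all 20259 entries, and by reads, which are not divided by length, it ranked 478. Its neighbours in the table were nearly silent: a 2301 bp entry with 14 and 10 reads came before it and an entry without reads came after it. Without this entry the share of very short entries in all reads was 0.0313% in replicate 1 and 0.0342% in replicate 2, so that the order of the replicates turned round.

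The next highest very short entry was an earlier-number one. ENSORLG00000001961, 127 bp long, had 1738 reads in replicate 1 and 2069 in replicate 2, or 604.2 and 706.9 RPKM (mean 656 ± 72.6, SD, n = 2), and ranked 185 by RPKM. The entries above 100 RPKM numbered 5. Below these, an entry of 150 bp stood at 84.8 and 98.9 RPKM, an entry of 75 bp at 73.0 and 78.1 RPKM, and an entry of 86 bp at 67.8 and 57.0 RPKM in replicates 1 and 2. The 5 above 100 RPKM were the late-number entry of 94 bp and 4 earlier-number entries of 110 to 131 bp. The top 10 by reads held 77.1% of the very short entries' reads in replicate 1 and 74.3% in replicate 2, and 3 of these 10 had late numbers.

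Many very short entries stood side by side in the table. Of the 280, 122 (43.6%) had another very short entry directly before or after them. They formed 44 runs of 2 or more, and 158 stood alone. A neighbour without a read has no known length and was not counted. Of the 240 with late numbers, 121 had such a neighbour, and of the 40 with earlier numbers 1 had. The table's order followed the earlier identifier numbers for the most part. In 89.4% of steps between successive earlier-number entries the number went up by 1 to 50. The late-number entries were placed between them. For 205 of the 240 very short late-number entries (85.4%), the earlier-number entries on either side were likewise 1 to 50 apart. No source used here says whether this order follows the chromosomes. With the table cut into 10 stretches of equal size, a stretch held between 11 and 45 very short entries, with the most in the last one, and between 1414 and 1491 longer entries.

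The longest run was 8 entries at lines 13430 to 13437, and each had reads in both pools. The lengths, in table order, were 76, 63, 82, 76, 80, 79, 70 and 79 bp. Replicate 1 had 46, 57, 25, 68, 22, 87, 44 and 37 reads on them, and replicate 2 had 71, 35, 42, 85, 31, 92, 38 and 35. Their mean levels lay between 14.5 and 49.6 RPKM with a median of 28.8 RPKM, all above the upper quartile of 7.50 RPKM of the 280. The flanking earlier-number entries were at 6.89 RPKM before the run and 33.7 RPKM after it.

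The next runs were less even. A run of 6 at lines 7296 to 7301 had lengths of 73, 76, 125, 69, 65 and 76 bp, with 91, 8, 16, 47, 26 and 15 reads in replicate 1 and 82, 1, 28, 71, 20 and 16 in replicate 2. Its mean levels ran from 2.61 to 51.9 RPKM, and its flanking entries were at 37.6 and 0.742 RPKM. A run of 5 at lines 13887 to 13891 held between 22 and 56 reads per entry, at 3.46 to 16.6 RPKM, beside a flanking entry at 338 RPKM. Runs of 4 numbered 7, with median levels from 0.945 to 19.0 RPKM. In 3 of these 7 a flanking entry stood above 1000 RPKM, at 4133, 3100 and 1684 RPKM, while the very short entries beside it had run medians of 2.71, 4.25 and 0.945 RPKM.

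**Figure D3:**
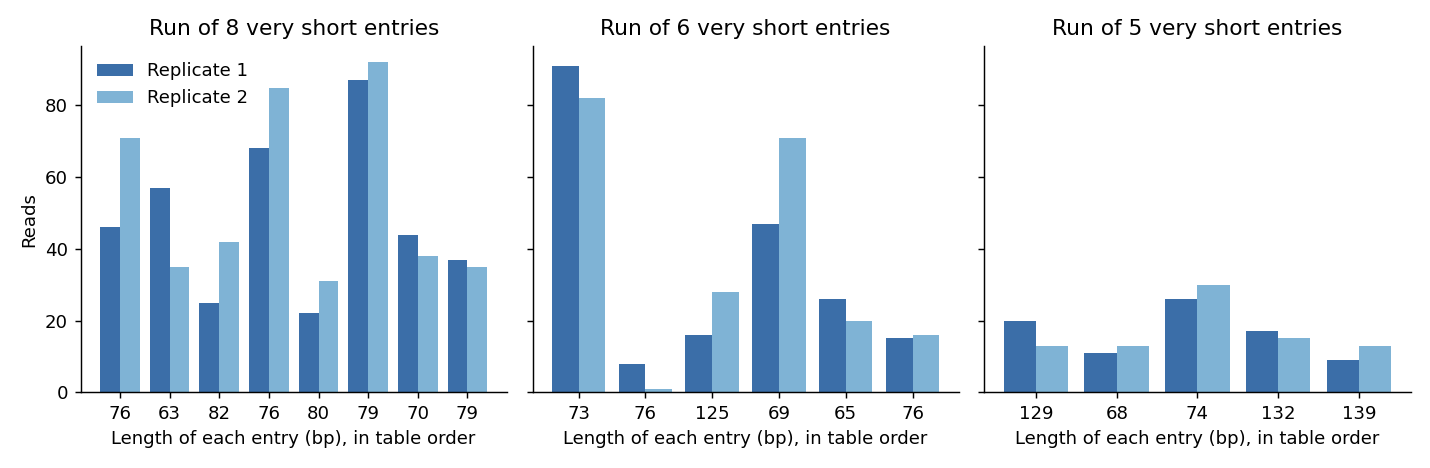
Reads of each entry in replicate 1 and replicate 2, in table order, for the runs of 8, 6 and 5 very short entries; labels on the horizontal axis give each entry's length in bp. The run of 8 holds 53 to 179 reads per entry over both replicates, the run of 6 holds 9 to 173 and the run of 5 holds 22 to 56.

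Neighbouring very short entries tended to have like levels. Over the 78 pairs of directly adjacent very short entries, Spearman's rho of mean RPKM was 0.53, and it was 0.43 over the 43 pairs with at least 10 reads on each. Over 10708 adjacent pairs of longer entries it was 0.10. Both members of 31 pairs were at 5 RPKM or more, both of 27 pairs were below it, and 20 pairs were split. Of all 280 entries, 35% were at 5 RPKM or more, but this is not the share among entries in pairs, which lay higher. Entries with a very short neighbour had a median of 5.28 RPKM, and those without one 1.32 RPKM. A neighbour counted here only if it had a read itself, so short neighbours without a read were missed. Of the 459 late-number entries without a read, 213 stood directly beside another late-number entry. These correlations run across entries within the same libraries, an entry within a run enters 2 pairs, and entries are not independent replicates.

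Very short entries with late numbers lay beside higher flanking genes than late-number entries without a read did, a difference given as values with no test. The higher of the flanking earlier-number entries had a median of 52.9 RPKM (interquartile range 26.9 to 545) for the 240 very short entries, and 20.6 RPKM (5.88 to 47.0) for the 459 late-number entries without a read. For all 19527 pairs of successive earlier-number entries the median of the higher was 21.9 RPKM. A flank of at least 100 RPKM stood beside 38.8% of the 240, against 10.7% of the 459 and 12.5% of all pairs. When each gap between earlier-number entries was counted once, the median was 46.7 RPKM over 160 gaps with a very short entry and 19.2 RPKM over 314 gaps whose late-number entries had no read. The level of a very short entry itself did not follow its flank: Spearman's rho was 0.07 over the 240 and -0.12 over the 117 with at least 10 reads. The lengths of the 459 are not known, and whether flanking genes and short entries overlap was not tested.

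The replicates agreed less for very short entries than for longer ones when compared in RPKM. Values are log2((RPKM + 1) of replicate 1 over replicate 2), a scale that understates the change of low genes. Of the 280, 190 had a mean of at least 1 RPKM, and their median absolute log2 ratio was 0.43, against 0.09 for 11082 longer entries. More than 2-fold apart were 32 of the 190 (16.8%), where 0.334% of all 14385 entries tested were. Of the 32, 13 were higher in replicate 1 and 19 in replicate 2. Among all 14385 entries, 0.139% were more than 2-fold higher in replicate 1 and 0.195% in replicate 2. Longer entries supplied 12 such cases. The 32 had a median of 11 reads in both replicates together and at most 95. Pearson's r of log2(RPKM + 1) between the replicates was 0.908 over the 280 and 0.997 over the longer entries, across entries within 1 pair of libraries.

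Within bins of reads the values lay closer together. Entries were grouped by reads in both replicates together, and scaled reads plus 0.5 were compared. With 10 to 34 reads, the median absolute log2 ratio was 0.54 for 73 very short entries and 0.56 for 1362 longer ones. With 35 to 99 reads it was 0.33 for 48 and 0.36 for 1400 entries, and with 100 to 999 reads it was 0.17 for 21 and 0.14 for 4845. Reads were not equal within this last bin, with a median of 173 for very short and 395 for longer entries. More than 2-fold apart were 28.8% of very short and 23.6% of longer entries with 10 to 34 reads, and 8.33% and 5.07% with 35 to 99 reads. Under 10 reads stood 48.2% of the very short entries and 11% of the longer ones. The part of read number in the wider spread in RPKM was not tested.

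**Figure D4:**
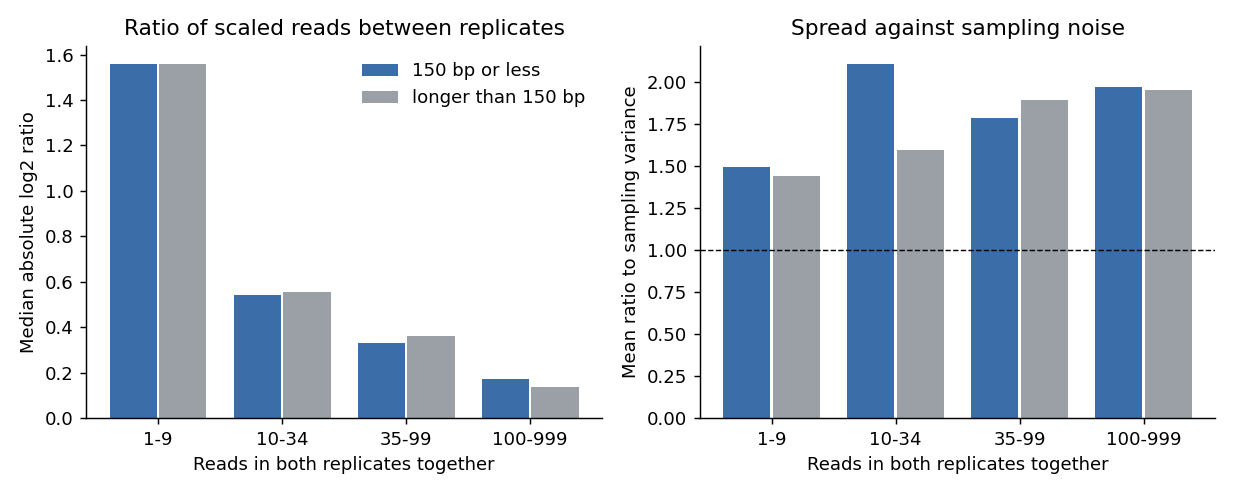
Very short entries (blue) beside longer entries (grey) in 4 bins of reads over both replicates. Left, the median absolute log2 ratio of scaled reads plus 0.5 between the replicates; right, the mean ratio of the squared difference to its sampling variance, with a dashed line at 1. The bars lie close together except on the right at 10 to 34 reads, where they stand at 2.11 for very short and 1.60 for longer entries. The bin from 1000 reads is not drawn, and its variance ratios were 53.5 for very short and 4.10 for longer entries.

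Against sampling noise, very short and longer entries had close ratios with 35 to 99 and 100 to 999 reads. The ratio was higher for very short entries with 10 to 34 reads and among the most abundant, a difference not tested. For each entry, the squared deviation from the split of reads that the totals predict was divided by its binomial variance, so that ideal sampling gives 1. With 10 to 34 reads the mean ratio was 2.11 for very short and 1.60 for longer entries, and 1.90 for very short entries without the single largest value. With 35 to 99 reads the ratios were 1.78 and 1.89, and with 100 to 999 reads 1.97 and 1.95. With 1000 reads or more they were 53.5 over 3 very short entries and 4.10 over 5331 longer ones, and 13.0 over the very short entries without ENSORLG00000021659. Over all 145 very short entries with at least 10 reads the ratio was 3.04, and it was 2.13 without ENSORLG00000021659. For the 12938 longer entries it was 2.79.

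Exact two-sided binomial tests on the reads set the libraries, not conditions, against each other, and allow for counting error alone. At a Benjamini-Hochberg adjusted p under 0.05 over all tested entries, 6 of the 145 very short entries were called, or 4.14%, where 6.08% of all 16588 entries tested were. This share is near that of the whole table, but a call depends on the number of reads, which was lower for very short entries. With 10 to 34 reads, 3 of 73 very short and 22 of 1362 longer entries were called. With 35 to 99 reads, 1 of 48 and 34 of 1400 were. With 100 to 999 reads, 0 of 21 and 157 of 4845 were. With 1000 reads or more, 2 of 3 and 565 of 5331 were. The sampling variance was then scaled by the mean ratio of longer entries in the same bin of reads. With this scaling, 1 of the 6 was still called, ENSORLG00000021659, and 43 entries of the whole table were (0.259%). The bin from 1000 reads has no upper end. Its longer entries had a median of 2535 reads, while ENSORLG00000021659 had 13565. Whether the scale of this bin fits an entry with so many reads was not tested. Of the 6, 3 were higher in replicate 1, where 3.39% of all entries tested were, and 3 in replicate 2, where 2.69% were. Among all entries, 55.8% of calls were higher in replicate 1, and 41.3% were when the libraries were scaled to a median log2 ratio of 0, which left the split of the 6 at 3 and 3. With the variance scaled, 10 of the 43 calls (23.3%) were higher in replicate 1.

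The entries called with counting error alone were the most abundant pair and 4 with few reads, and all but the first lost the call with the scaled variance. ENSORLG00000021659 was higher in replicate 1 by a log2 ratio of 0.29 (adjusted p = 5.75e-28, exact binomial test), and ENSORLG00000001961 was lower, with a log2 ratio of -0.23 (adjusted p = 1.38e-04, exact binomial test). ENSORLG00000021283, 78 bp long, had 4 reads in replicate 1 and 24 in replicate 2 (log2 ratio -2.14, exact binomial adjusted p = 0.00750). ENSORLG00000021299, 84 bp long, had 5 and 22 reads (log2 ratio -1.77, exact binomial adjusted p = 0.0323). ENSORLG00000021474, 129 bp long, had 65 and 30 reads (log2 ratio 1.07, exact binomial adjusted p = 0.0104). The largest ratio among entries of at least 5 RPKM was that of ENSORLG00000021665, 88 bp long, with 17 and 4 reads (log2 ratio 1.68, exact binomial adjusted p = 0.0599), which missed the threshold.

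**Figure D5:**
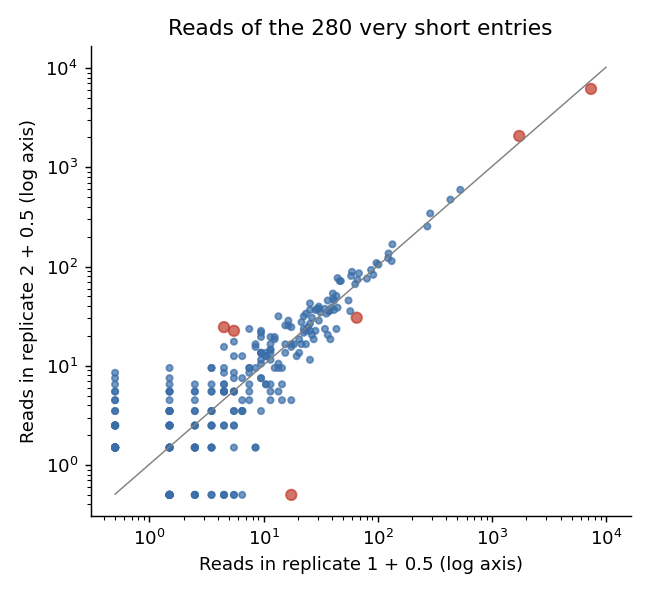
Reads plus 0.5 of each of the 280 very short entries in replicate 1 (horizontal) and replicate 2 (vertical), both on log axes; the line marks the split expected from the library totals, and red points are the 6 called by the binomial test. The points widen around the line below about 10 reads, and the 2 red points at the upper right are the entries with 3807 and 13565 reads.

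The entries of 88 bp did not deviate alike. The sixth call was an 88 bp entry at line 18531 with 17 reads in replicate 1 and 0 in replicate 2. With 3 reads in place of the 0, replicate 1 was 5.77-fold higher, a value that leaves out the counting error of the 17 reads. Within the next 3 lines stood a second 88 bp entry with 13 and 5 reads, and then ENSORLG00000021665. The 3 together had 47 reads in replicate 1 and 9 in replicate 2, and were picked after their values were seen. The other 12 entries of 88 bp had 46 and 56 reads. Whether neighbouring entries of equal length have near-identical sequences, between which reads could be split, is not known here, and their values are uncertain for that reason.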

How the data were processed

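Per the labels' protocols, RNA was extracted with Trizol and cleaned on a column, and libraries were sequenced on an Illumina HiSeq. TopHat is named in the submitters' processing notes. No source used here names the counting program, genome build, annotation release or strand setting, which leaves values of overlapping genes uncertain. For each sample the authors deposited RPKM values and raw counts, 1 of each per entry. For entries with 1 transcript and no joined gene, length was computed as count × 1e9 / (RPKM × N), with N = 22650004 in replicate 1 and 23045699 in replicate 2, from replicate 1 where it had reads and otherwise from replicate 2. Lengths came out whole within 1e-09 bp. Detection was set at 1 RPKM, the pseudocount at 1 RPKM and the minimum for count tests at 10 reads. Binomial tests expected the split of the total counts (22661195 and 23055861) and were adjusted over the 16588 entries with at least 10 reads in both replicates together. These totals are sums over entries and are slightly larger than N in both replicates, for a reason not known here. With 1 group there is no test of a condition. The variance ratio and the plain binomial test were tried on simulated counts that held sampling noise, with or without set fold changes. These libraries spread more widely than sampling noise, and the test with the scaled variance was not simulated. Python 3.11.15, numpy 2.4.6, pandas 2.3.3, scipy 1.17.1 and matplotlib 3.10.9 were used.

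The very short entries, the tests and the comparisons were chosen with earlier results of these data known. With no gene names, the rule for named entries took the 2 with the highest mean RPKM, the 2 with most reads (here the same pair), and the 2 largest and 2 smallest log2 ratios from a mean of 5 RPKM. Other entries are given by length or line. Alternatives covered the length limit, thresholds, pseudocounts, scaling and each replicate left out.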

Additional observations from a re-analysis of the deposited data

How the results depend on the processing

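The number of very short entries, 280 at 150 bp, was 152 at a limit of 100 bp, and 242 to 249 with 1 replicate left out. The 159 detected in both replicates became 85 at 5 RPKM, 91 with 10 reads in each and 103 at a limit of 120 bp, and 182 to 190 with 1 replicate left out. The median of 2.53 RPKM became 7.31 RPKM with at least 10 reads, 2.10 RPKM at 120 bp, 2.70 RPKM at 200 bp, 2.15 RPKM for late numbers alone, 2.45 RPKM without the entry with most reads and 2.36 to 2.47 RPKM with 1 replicate left out. In counts per 1000000 reads it was 0.219. The share of reads over both libraries, 0.0624%, became 0.0430% at 120 bp, 0.121% at 200 bp and 0.0328% without the entry with most reads, and 0.0609% to 0.0640% with 1 replicate left out. The 32 entries more than 2-fold apart became 49 with a pseudocount of 0.1, 0 with a pseudocount of 10, 8 from 5 RPKM and 13 in counts without a pseudocount. The median absolute log2 ratio of 0.43 from 1 RPKM became 0.17 with a pseudocount of 10. The variance ratio of 3.04 became 4.73 from 50 reads, 1.87 by medians and 1.71 without the 5 largest. The 6 binomial calls became 1, ENSORLG00000021659, with the sampling variance scaled by the ratio of longer entries in the same bin of reads. For these results and the count of adjacent entries, 31 alternatives stayed within 1.5 times or the replicate spread, and 23 did not. No log2 ratio of a named entry changed sign, but a change of pseudocount or of variance cannot turn a sign. Scaling to a median log2 ratio of 0 moved the ratios by only 0.015. With a pseudocount of 10, the 4 named entries more than 2-fold apart came within 2-fold: ENSORLG00000021665 at 0.63, ENSORLG00000021474 at 0.68, ENSORLG00000021283 at -0.93 and ENSORLG00000021299 at -0.76. Leaving out the entry with most reads, late numbers alone and single gaps were chosen after seeing the data. No paired analysis was possible because a single group was sequenced. At this depth 135 of the 280 had fewer than 10 reads.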

Other observations

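The late-number entries longer than 150 bp were few and also low. There were 32, with lengths from 152 to 357 bp and a median of 204.5 bp. Their median was 1.495 RPKM (interquartile range 0.393 to 4.14), from a median of 14 reads over both replicates. In both replicates 18 of the 32 (56.2%) reached 1 RPKM, a share close to that of the very short late-number entries, 131 of 240 (54.6%). The highest stood at 124 RPKM from 875 reads. The difference between these classes was not tested.

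Late-number entries with and without reads stood beside each other. Of the 731, 360 (49.2%) had another late-number entry directly before or after them. This held for 147 of the 272 with a read (54.0%) and 213 of the 459 without one (46.4%), a difference that was not tested. The longest runs held 9.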
